A study of Hydra vulgaris with 15 samples.

Results

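A group of 24 transcripts of the freshwater polyp Hydra vulgaris was higher in heads treated by RNA interference (RNAi) against Zic4 than in any control library, with no matching rise in RNAi body columns. They were chosen from the 79784 assembled transcripts of the study by their measured levels. Levels are in CPM, the estimated read count of a transcript multiplied by 1e6 and divided by the total of its library. A member had a mean of at least 5 CPM in the 4 RNAi heads, and its lowest RNAi head lay above the highest of the 7 control libraries. Its RNAi head mean was at least 1.5 times the mean of control heads and at least 1.5 times the mean of control body columns. Its mean in RNAi body columns was under 125% of that in control body columns. The levels of all 4 groups thus chose the members, and their rise in RNAi heads is a description.

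The study compared polyps treated by RNAi against Zic4 with control polyps, and took head and body column from each. The libraries were 4 Zic4 RNAi heads, 4 control heads, 4 Zic4 RNAi body columns (replicates 1 to 4 in each) and 3 control body columns (replicates 2, 3 and 4). All came from the strain Basel1. After 4 days without food, intact polyps went through 4 electroporations, and RNA was taken 1 day later from 20 animals per condition. The labels give the controls the genotype wild-type and do not say what they were electroporated with. A library is RNA of pooled polyps, and the labels do not say whether replicates came from separate cultures, so p-values measure the spread between these libraries, which may be technical. In the labels, the field for the source reads entire animal, while the titles and the tissue field give head or body column.

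Hydra is a cnidarian with a tube-shaped body column, a foot at one end and a head with mouth and tentacles at the other. Its cells move from the body column towards both ends and change their identity as they arrive, so head and body column differ in cell types and in gene activity. Zic4 belongs to the Zic family of zinc finger transcription factors, and the study links it to tentacles and to the identity of epithelial cells. In pooled tissue, a change in the number of cells of a type and a change in RNA per cell cannot be told apart.

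The transcript table carries contig IDs without gene names, and 0 of the IDs matched a RefSeq table of 28925 Hydra genes. Members are therefore given by ID, with no gene name or role. Zic4 itself and marker genes of the tissues were not analysed here, so the treatment and the tissue of a library rest on its label. Library totals lay between 16020872 and 22554240 counts. Every member had at least 90.9 estimated counts in each RNAi head. Among nonzero values, 74.2% were not whole, which arises when reads that match several similar contigs are divided between them.

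The members ranged widely in abundance. Their RNAi head means ran from 6.15 to 230 CPM with a median of 16.6 CPM. Of the 24, 4 had a mean of at least 100 CPM, 12 lay between 10 and 100 CPM, and 8 were under 10 CPM. The 4 most abundant held 61.5% of the summed level of the members in RNAi heads.

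**Figure D1:**
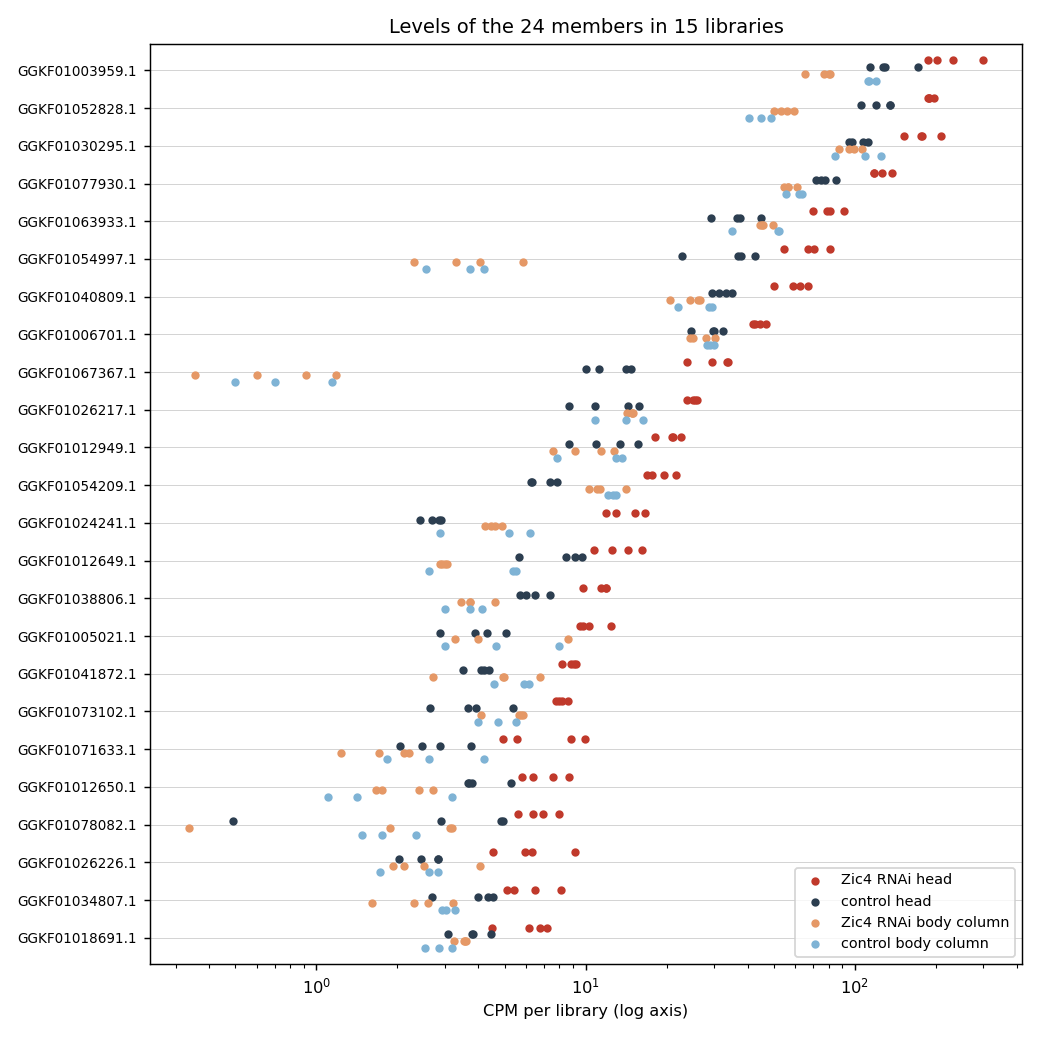
Level of each of the 24 members in each library, in CPM on a log axis; rows are members ordered by their RNAi head mean, and each point is 1 library of the group its colour gives. In every row the 4 RNAi heads lie to the right of the 7 control libraries, as the choice of members requires; 1 value of 0 (GGKF01005021.1, RNAi body column replicate 3) has no place on the axis.

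Summed over the members, the level was 1321, 1157, 1095 and 1140 CPM in RNAi heads of replicates 1 to 4, against 616, 615, 691 and 750 CPM in control heads. The mean was 1178 ± 98.3 CPM in RNAi heads and 668 ± 65.3 CPM in control heads (SD, n = 4 each), a ratio of 1.76. In body columns the summed level averaged 464 ± 12.04 CPM after RNAi (SD, n = 4) and 514 ± 12.5 CPM in controls (SD, n = 3). These sums did not overlap, but the most abundant member, GGKF01003959.1, weighed heavily in them. It averaged 76.0 CPM in RNAi body columns and 115 CPM in control body columns. Without the 3 most abundant members the sums overlapped, at 225 to 242 CPM after RNAi and 232 to 257 CPM in controls. A lower sum in RNAi body columns is therefore not read as a fall of the whole group. The RNAi body columns thus did not share the higher level of the RNAi heads, as the choice of members requires.

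**Figure D2:**
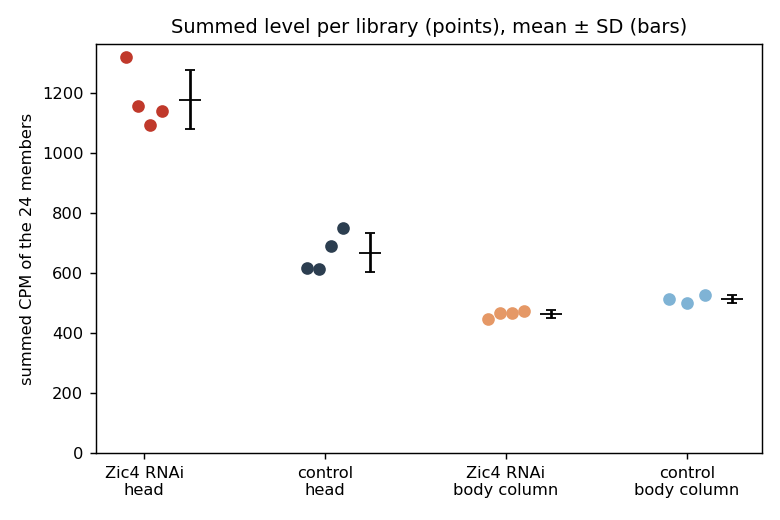
Summed CPM of the 24 members in each library (points) with the mean and SD of each group beside them. RNAi heads sit between 1095 and 1321 CPM and control heads between 615 and 750 CPM, while all body columns of both treatments sit between 447 and 527 CPM.

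Relative to control heads the members stood at a median of 1.90 times in RNAi heads, with a range of 1.51 to 5.23. Relative to the higher of the 2 control means the median was 1.72 times, and 6 members reached 2 times. Among all 13040 transcripts with at least 5 CPM in RNAi heads, the median ratio of RNAi to control heads was 0.969. This ratio rests on library totals. For the larger set of 31142 tested transcripts, the median fitted log2 fold change between RNAi and control heads depended on the scaling. It was -0.14 with library size alone and -0.020 with a correction for composition (TMM factors). On the scale with TMM factors the members had a median log2 fold change of 1.04 in heads and -0.018 in body columns.

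By the quasi-likelihood test of edgeR, 20 of the 24 members were called higher in RNAi heads than in control heads at a Benjamini-Hochberg (BH) adjusted p under 0.05, where 2.65% of the 31142 tested transcripts were called higher. The RNAi effect was called larger in heads than in body columns for 10 of the 24, where 0.501% of all tested transcripts were so called. The DESeq2 Wald test called 18 of the 24, where it called 2.89% of all. Between RNAi and control body columns edgeR called 0 of the 24 members, where 2.06% of all were called. The lowest adjusted p there was 0.0771. An unadjusted p under 0.05 was found for 3 members and for 16.8% of all. DESeq2 called 2 members, 1 higher and 1 lower after RNAi, and 8.84% of all. Nothing is read from any of these counts, because the rule used the same libraries, with a lower limit on the rise in heads and an upper limit on the rise in body columns.

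The member with the highest ratio was GGKF01024241.1. It had 16.7, 15.3, 11.9 and 12.9 CPM in the RNAi heads of replicates 1 to 4, against 2.85, 2.69, 2.42 and 2.90 CPM in the control heads. Every RNAi head was thus more than 4 times any control head. In body columns it had 4.61, 4.88, 4.47 and 4.24 CPM after RNAi, against 2.87, 5.19 and 6.23 CPM in controls. Its level in RNAi heads was 2.98 times the higher control mean, which was that of the body columns. That ratio was lowest, at 2.49, without control body column replicate 2 and highest, at 3.53, without control body column replicate 4. All 15 of its values were whole numbers, as for a contig whose reads are not divided with another.

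GGKF01067367.1 had 33.9, 33.4, 23.9 and 29.5 CPM in RNAi heads, against 11.2, 10.1, 14.8 and 14.1 CPM in control heads. Both kinds of body column had little of it, with 0.355, 0.603, 0.914 and 1.19 CPM after RNAi, against 0.499, 0.700 and 1.14 CPM in controls. GGKF01054997.1 was likewise far lower in body columns than in heads. Its RNAi heads had 66.9, 54.5, 81.1 and 70.4 CPM, against 37.0, 22.7, 37.9 and 42.6 CPM in control heads. Its body columns had 4.05, 2.30, 5.83 and 3.30 CPM after RNAi, against 2.56, 3.72 and 4.20 CPM in controls. Both were head transcripts in control animals, and stood at 2.41 and 1.95 times the control head mean in RNAi heads. The body column levels of GGKF01067367.1 rest on 8 to 19 counts per library after RNAi and 8 to 20 in controls. A larger RNAi effect in heads than in body columns was called for neither transcript (edgeR BH adjusted p = 0.152 and 0.291).

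The other members with a high ratio were rare and varied between RNAi heads. GGKF01071633.1 had 9.93, 8.85, 4.95 and 5.56 CPM in RNAi heads, against 2.47, 2.87, 3.75 and 2.05 CPM in control heads. Its coefficient of variation over RNAi heads, 33.3%, was the highest among the members. It fell into a higher pair (replicates 1 and 2) and a lower pair (replicates 3 and 4), and its ratio to the higher control mean was 2.55. GGKF01026226.1 had 9.13, 4.52, 5.95 and 6.31 CPM in RNAi heads, against 2.45, 2.83, 2.02 and 2.84 CPM in control heads, with a ratio of 2.56. None of the 15 values of either transcript was whole, as for contigs that share reads with others, and their single values are uncertain for that reason.

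The 4 most abundant members had ratios of 1.54 to 1.70 to the higher control mean, near the median of 1.72 over all members. GGKF01003959.1 had 299, 232, 188 and 202 CPM in RNAi heads, against 129, 114, 128 and 172 CPM in control heads. It was the most abundant member, and its RNAi head mean was 1.70 times that of control heads. In body columns it lay in the other direction, at 65.6, 76.8, 81.3 and 80.3 CPM after RNAi, against 112, 113 and 120 CPM in controls. These body column groups did not overlap, but edgeR made no call (log2 fold change -0.54, SE 0.15, BH adjusted p = 0.0771).

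In CPM, GGKF01052828.1 varied least of the members over RNAi heads, with 189, 187, 198 and 189 CPM and a coefficient of variation of 2.55%. Control heads had 105, 120, 135 and 135 CPM. Its RNAi body columns had 50.2, 53.2, 56.0 and 59.3 CPM, against 44.7, 48.7 and 40.6 CPM in control body columns. All 4 RNAi body columns thus lay above the 3 control body columns, by a ratio of means of 1.22 (log2 fold change 0.35, SE 0.10, edgeR BH adjusted p = 0.0883). GGKF01018691.1, named after its values were seen, was the other member whose RNAi body columns all lay above the controls, with a ratio of 1.22. Both missed the rule when library totals were corrected for composition, so for them a level raised in heads alone depends on the scaling. With 1 of the 15 libraries left out in turn, GGKF01052828.1 passed the rule in 12 of the 15 cases. In all, RNAi and control body columns did not overlap for 3 of the 24 members, where this held for 15% of those tested.

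GGKF01030295.1 had 209, 176, 153 and 177 CPM in RNAi heads, against 98.1, 95.7, 108 and 112 CPM in control heads. GGKF01077930.1 had 137, 118, 118 and 127 CPM in RNAi heads, against 72.0, 75.1, 77.9 and 85.2 CPM in control heads. Neither set of heads overlapped, and both transcripts had body columns near their control level, at 0.911 and 0.944 times the control body column mean.

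The lowest ratios of RNAi to control body columns belonged to GGKF01071633.1, at 0.632, and to GGKF01012649.1, at 0.657. GGKF01012649.1 had 14.3, 16.2, 12.6 and 10.8 CPM in RNAi heads, against 9.10, 8.43, 5.64 and 9.73 CPM in control heads. In body columns it had 2.88, 2.92, 3.05 and 3.01 CPM after RNAi, against 5.38, 2.63 and 5.52 CPM in controls. Control body column replicate 3 lay under the RNAi body columns, so these groups overlapped, and edgeR made no call (BH adjusted p = 0.287). Over the 24 members the RNAi body column mean was below that of controls for 15 and above it for 9, with ratios from 0.632 to 1.22, an upper end that the rule sets.

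The members with the lowest ratio that still passed the rule were GGKF01006701.1, at 1.51 times the higher control mean, and GGKF01054209.1, also at 1.51 times. GGKF01006701.1 averaged 44.0 ± 2.17 CPM in RNAi heads and 29.2 ± 3.23 CPM in control heads (SD, n = 4 each). Just outside the limit were GGKF01013319.1 at 1.48 times, with 394 ± 28.9 CPM in RNAi heads and 266 ± 26.6 CPM in control heads (SD, n = 4 each), and GGKF01023193.1 at 1.47 times, with 160 ± 23.9 CPM in RNAi heads and 109 ± 15.5 CPM in control heads (SD, n = 4 each). Altogether 109 transcripts met every other limit and missed this ratio. The edge of the group therefore does not mark a gap in the data.

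Whether a member was higher in the head or in the body column of control animals was not set by the rule, and this contrast was tested. It is not wholly free of the rule, which used both control levels, and a transcript rich in body columns had to pass the body column level as well. Of the 24 members, 7 were called higher in control heads and 3 higher in control body columns, and 14 were not called by edgeR at a BH adjusted p under 0.05. The background was 14.6% of all tested transcripts called higher in the head and 14.1% called higher in the body column, 28.7% in all. Among the 13040 transcripts with at least 5 CPM in RNAi heads it was 49.3%, against 41.7% of the members. The number of members called was 6 without control body column replicate 3 and also 6 without control head replicate 4.

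GGKF01067367.1 had the largest difference towards the head, with 12.5 ± 2.26 CPM in control heads (SD, n = 4) and 0.781 ± 0.329 CPM in control body columns (SD, n = 3). The fitted difference was 3.87 ± 0.33 on the log2 scale (SE; edgeR, BH adjusted p = 6.7e-07), and 4 of 4 control heads lay above all control body columns. GGKF01054997.1 followed, with 35.0 ± 8.56 CPM in control heads (SD, n = 4) and 3.49 ± 0.842 CPM in control body columns (SD, n = 3). This is a difference of 3.20 ± 0.28 on the log2 scale (SE; edgeR, BH adjusted p = 9.43e-07), again with 4 of 4 control heads above. GGKF01052828.1 was higher in control heads by 1.35 on the log2 scale (SE 0.10, edgeR BH adjusted p = 2.1e-07). These 3 transcripts stayed past the threshold under every alternative run for them.

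GGKF01077930.1 was higher in control heads by 0.24 on the log2 scale (SE 0.069, edgeR BH adjusted p = 0.0177), and GGKF01012649.1 by 0.75 (SE 0.24, edgeR BH adjusted p = 0.0332). Without control body column replicate 3 their edgeR BH adjusted p was 0.0880 and 0.143, and without control head replicate 4 it was 0.0854 and 0.0876. With no filter on low counts it was 0.0670 and 0.0653, and with only the control groups fitted it was 0.0552 and 0.100. GGKF01012649.1 was also not called without control head replicate 1 (edgeR BH adjusted p = 0.0803) or replicate 2 (0.0648).

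In the other direction, GGKF01054209.1 had 7.36, 6.34, 6.27 and 7.87 CPM in control heads, against 12.7, 12.1 and 12.97 CPM in control body columns. The groups did not overlap, and the fitted difference was -0.97 ± 0.12 on the log2 scale (SE; edgeR, BH adjusted p = 2.52e-05). In RNAi heads this transcript stood at 21.7, 17.6, 17.0 and 19.6 CPM, above every control body column and above the RNAi body columns at 11.3, 11.0, 14.1 and 10.3 CPM. GGKF01024241.1 was also lower in control heads, with a log2 fold change of -0.93 (SE 0.21, edgeR BH adjusted p = 0.00434), although control body column replicate 2, at 2.87 CPM, lay within the range of the control heads. For both, control heads were below control body columns, while RNAi heads were above RNAi body columns, an order after RNAi that the rule fixes for every member. GGKF01054208.1 and GGKF01054210.1, named after their values were seen, have the ID numbers on either side of GGKF01054209.1 and are not members. Their log2 ratios of RNAi to control heads (CPM plus 0.5) were 1.37 and 1.34, against 1.39 for GGKF01054209.1. They did not pass the limits against control body columns, while GGKF01054209.1 passed at 1.51 times the control body column mean. None of the 15 values of GGKF01054209.1 was whole.

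**Figure D3:**
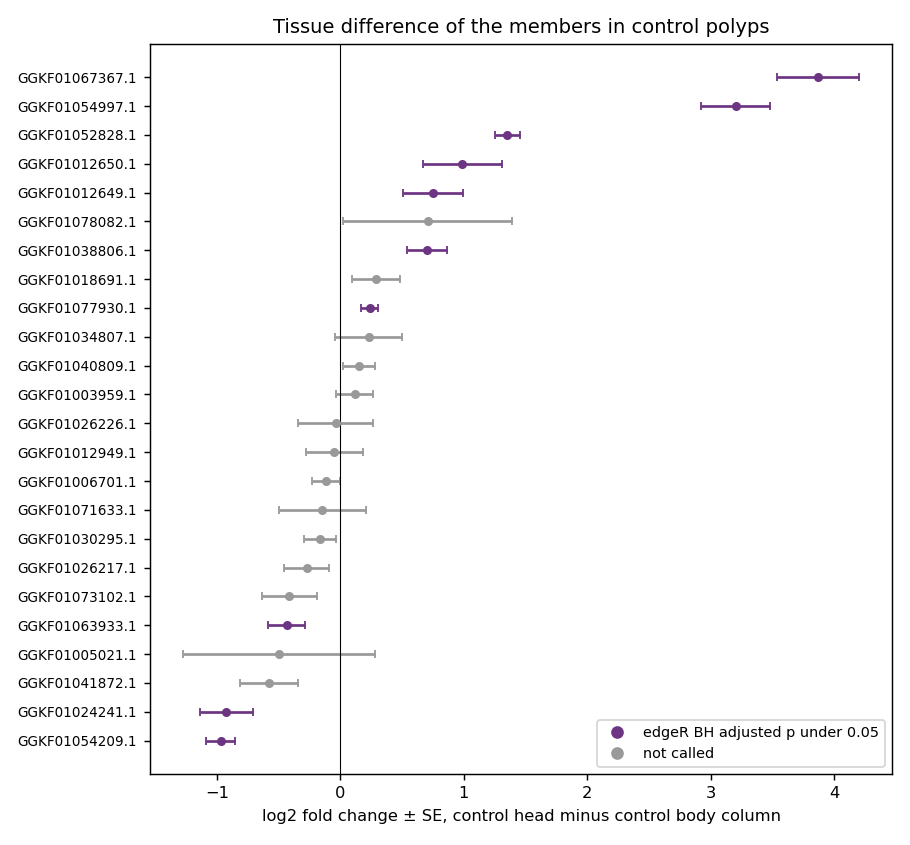
Fitted log2 fold change of each member between control heads (n = 4) and control body columns (n = 3), with its SE; positive values are higher in control heads. The 7 members called higher in control heads lie right of 0 and the 3 called higher in control body columns lie left of it, with the 14 members that were not called on both sides of 0.

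Control head and control body column libraries did not overlap for 9 of the 24 members, where this held for 36.3% of those tested. In RNAi animals every head lay above every body column for 24 of 24 members, where this held for 16.5% of all tested transcripts. The rule nearly fixes this order, and edgeR called 21 of the 24 higher in RNAi heads than in RNAi body columns, where 13.1% of all were called higher.

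The 24 members were a small share of the transcripts raised in RNAi heads. With the same limits against control heads alone, 171 transcripts were raised. Of these, 25 passed the limits against control body columns but also had an RNAi body column mean of at least 125% of the control body column mean. The other 122 did not pass the limits against control body columns. The median ratio of control heads to control body columns was 1.12 for the members, 1.13 for the 25 and 0.340 for the 122, a difference that the limits against body columns bring with them. The median ratio of RNAi to control heads was 1.90 for the members, 2.50 for the 25 and 2.09 for the 122.

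**Figure D4:**
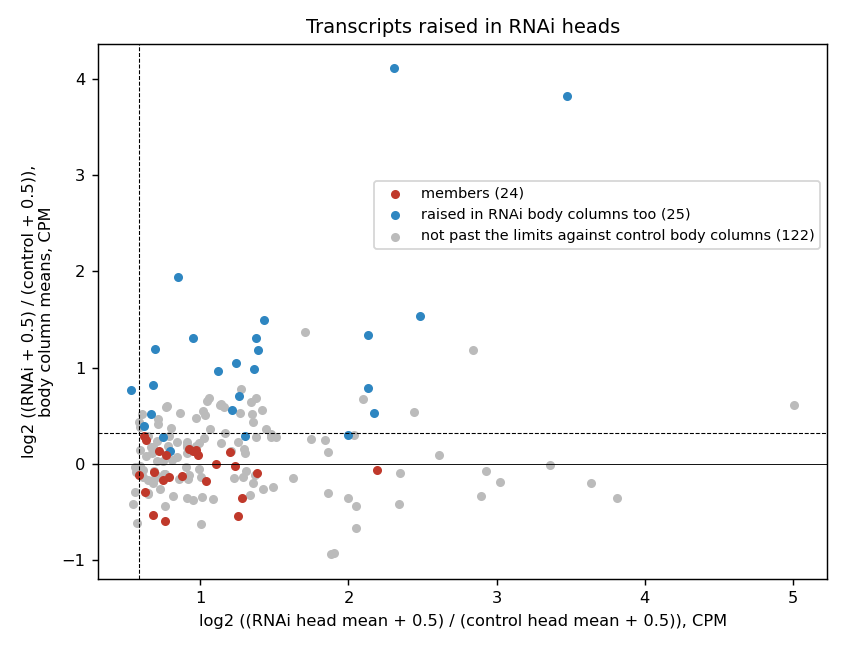
Log2 ratio of RNAi to control means (CPM plus 0.5) in heads on the horizontal axis and in body columns on the vertical axis, for the 171 transcripts raised in RNAi heads. Dashed lines mark the limits of 150% and 125% on the plain ratio, which the added 0.5 CPM lets a few points cross; the 24 members lie under the line for body columns, and only GGKF01024241.1 among them lies beyond 2 on the horizontal axis.

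The share of estimated counts that were whole was not used by the rule. A transcript whose reads are not divided with other contigs has whole values in all 15 libraries. A value within 1e-06 of a whole number was taken as whole. Of the members, 5 of 24 (20.8%) had 15 whole values and 10 (41.7%) had none. The second share was lower than in the compared transcripts, but it counts only members with all 15 values not whole. GGKF01052828.1, GGKF01054997.1, GGKF01005021.1 and GGKF01018691.1 had 14 of 15 values not whole, and the exception for GGKF01005021.1 was an exact 0. Of the 25 transcripts raised in both tissues, 4.00% had 15 whole values and 64.0% had none. Among the 122, the shares were 13.9% and 67.2%, and among the 13040 transcripts of at least 5 CPM they were 16.5% and 64.9%. These shares were not tested. One pair of members had consecutive ID numbers, GGKF01012649.1 and GGKF01012650.1, the second named after its values were seen. Neither had a whole value in any library, and the table does not say whether they come from 1 gene.

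The order of the 4 RNAi heads was counted over the members, which the levels in these heads chose, so the counts are a description. In CPM, RNAi head replicate 1 was the highest of the 4 for 12 members and replicate 3 the lowest for 12. Among the 13040 transcripts of at least 5 CPM, these heads were the highest for 29.3% and the lowest for 21.2%. In CPM, replicate 2 was the highest for 9.79% of the 13040 and the lowest for 42.6%. With TMM factors replicate 2 was the highest for 14 members and replicate 1 for 9, while replicate 3 was still the lowest for 12. Over the 13040 transcripts these shares were 25.3%, 27.8% and 24.6%. Which head ranked highest thus depended on the scaling. Without RNAi head replicate 3 the rule chose 35 transcripts instead of 24, with 23 of the 24 among them, the widest change from leaving out 1 library. Leaving out an RNAi head can only ease the limit on the lowest RNAi head.

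Of the 24 members, 13 passed the rule with each of the 15 libraries left out in turn, and 11 failed it in at least 1 case. GGKF01006701.1, close to the ratio limit, passed in 11 of the 15 cases, the fewest. One member value in the table was an exact 0, that of GGKF01005021.1 in RNAi body column replicate 3, while the other RNAi body columns had 3.99, 3.29 and 8.61 CPM. An exact 0 can be a failed estimate, and this transcript, named after its values were seen, was not called higher in RNAi heads (edgeR BH adjusted p = 0.325). GGKF01078082.1, also named after its values were seen, had 0.490 CPM in control head replicate 4 and 0.337 CPM in RNAi body column replicate 4, against 2.91 to 4.93 CPM in the other control heads and 1.88 to 3.18 CPM in the other RNAi body columns. It was not called higher in RNAi heads either (edgeR BH adjusted p = 0.399).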

How the data were processed

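RNA of heads and body columns was sequenced from stranded libraries of messenger RNA (Illumina TruSeq, per the labels' protocols). The authors deposited 1 table of expected counts, which are estimated read counts per contig that need not be whole; the submitters' processing notes name Salmon and DESeq2 1.26.0, and genome build, annotation and settings are not given in the sources used here. Columns were matched to samples by title, and 0 were left unassigned.

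Members were found on CPM from column totals. For tests, expected counts were rounded to whole numbers, filtered with filterByExpr (31142 transcripts left, among them 24 of 24 members) and scaled with TMM factors. One edgeR 4.0.16 quasi-likelihood model in R 4.3.3 held all 15 libraries with 1 mean per group, and p-values were adjusted by the BH method over all tested transcripts. The SE was derived from the fold change and its F statistic. The test was tried on simulated counts with changes set in control heads alone, which did not imitate the choice of members or divided reads. Alternatives were DESeq2 1.42.0, other scalings, filters and thresholds, a replicate block, fits of 2 groups, and leaving out each library.

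The members and limits were chosen with earlier results of these data known. Transcripts named were the 4 with the highest ratio to the higher control mean (0.5 CPM added), the 4 most abundant, the 2 most extreme called in each direction between control tissues, the 2 with the lowest body column ratio, 2 on each side of the ratio limit, and those with the lowest and highest coefficient of variation. Others are said to have been named after their values were seen.

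Amplified reads are not independent molecules, so read depth overstates precision. Sequences of the contigs were not used here.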

Additional observations from a re-analysis of the deposited data

Results flagged for a closer look

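Of 48 groups of 4 libraries examined for the named transcripts, the summed level and the library total, 2 held a library whose gap to its neighbour, as a share of the range of its group, was past the critical value of Dixon's test. Chance gives about 1 in 20. Both were in transcripts just outside the ratio limit, not in members. GGKF01013319.1 had 18.4 CPM in RNAi body column replicate 3, while the other RNAi body columns had between 16.7 and 17.0 CPM. GGKF01023193.1 had 85.9 CPM in control head replicate 4, while the other control heads had between 114 and 119 CPM. This low library lies in the control group of the ratio that placed GGKF01023193.1 near the limit.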

How the results depend on the processing

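The rule chose 30 transcripts with TMM factors and 30 with DESeq2 size factors, 22 of the 24 members each time. It chose 38 with no minimum level, 6 with at least 2 times both control means, 15 with RNAi body columns under 1.0 times the controls, and 23 to 35 with 1 library left out. The number of members called between control tissues was 10. It was 7 with no filter on low counts, 6 with only the control groups fitted, and 6 at an adjusted p under 0.01. With 1 library left out it was 6 to 11. The number called higher in RNAi heads stayed between 16 and 19 with 1 library left out. The number with a larger effect in the head was 10, against 18 with DESeq2, 5 at an adjusted p under 0.01 and 7 to 10 with 1 library left out. Between body columns DESeq2 called 2 members where edgeR called 0, and the number was 0 in each fit that left out 1 library. The number called higher in RNAi heads than in RNAi body columns was 21 in each such fit. The ratio of summed levels was 1.91 with TMM factors, 1.90 without the 3 most abundant members, and 1.69 to 1.84 with 1 head left out.

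Of 156 alternative tissue differences for the 12 named members, 140 kept direction and side of the threshold, 10 lost the call and 6 changed sign, none of them called. GGKF01071633.1 had 0.18 without control body column replicate 4, and -0.38 to 0.18 over all cases with 1 control library left out. GGKF01026226.1 had 0.084 with library size alone, 0.11 without control body column replicate 3 and 0.044 without control head replicate 3, and -0.21 to 0.11 over all such cases. GGKF01003959.1 had -0.017 without control head replicate 4 and up to 0.18 in such cases, and GGKF01006701.1 had 0.0046 with library size alone. Causes of these changes were not tested.

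Same-numbered RNAi and control heads deviated from their group means with correlations of -0.015 to 0.014 across transcripts. For control heads and control body columns the correlations were -0.015 to 0.0022. In these comparisons 0 libraries correlated best with their own number. RNAi heads and RNAi body columns had correlations of -0.036 to 0.0053, and RNAi and control body columns had -0.0030 to 0.040. Such low correlations do not show whether the libraries were paired in the design. With the replicate block, 9 members were called between control tissues, 18 higher in RNAi heads, 7 with a larger effect in the head, 0 between body columns and 22 between RNAi tissues.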
